A study of Mus musculus with 5 samples.

Results

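The 10 genes S100a4, S100a6, S100a10, S100a11, S100a13, Anxa1, Anxa2, Lgals1, Lgals3 and Capg were followed in regulatory T cells (Tregs) of neonatal mouse skin and of the lymph nodes that drain it. They were taken by gene symbol from a count table of 24084 genes, and all 10 had a row. The Tregs came from mice of the Foxp3-DTR/GFP line, whose Foxp3 locus carries a receptor for diphtheria toxin joined to GFP. Both groups share that allele and an age of 13 days, and the labels name no treatment. RNA sequencing gave 2 libraries of skin Tregs and 3 of lymph node Tregs. No source used here gives the sort gate, the cell numbers or how many animals went into a library. The p-values therefore rest on library-to-library spread, part of which may be technical.

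S100 proteins are small calcium sensors that bind and steer other proteins, and annexins are proteins that attach to membrane phospholipids when calcium rises. Galectins bind galactose-containing sugars on cell surfaces, and Capg, a relative of gelsolin, caps the growing ends of actin filaments. In T cells, several of these genes are known to be low in the resting state and high in effector, memory and tissue cells.

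Gene counts ranged from 10468795 to 10787378 in the skin libraries and from 12305644 to 14595018 in the lymph node libraries. Levels are given as CPM, a gene's counts relative to the library's total gene counts after TMM scaling (trimmed mean of M values). Foxp3, the lineage factor, stood at 78.0 and 118 CPM in skin Tregs and between 89.6 and 99.8 CPM in lymph node Tregs. Of 13 Treg and T cell markers, Ctla4 (3.34-fold) and Ikzf2 (1.85-fold) were called higher in skin and Lck lower. Cd3d, Cd3e, Cd3g, Cd2 and Cd4 lay below lymph node in both skin libraries without passing the test, with log2 fold changes from -0.90 to -0.43. Markers of other cell types differed in both directions. The summed level of 18 macrophage and dendritic cell markers was 1930 and 2254 CPM in skin libraries 1 and 2, against 13.0 to 28.2 CPM in the lymph node libraries. Of the 13 that could be tested 8 were higher in skin, among them Lyz2 at 377 and 447 CPM in skin and 4.94 to 11.03 CPM in lymph node, while Itgax and Cx3cr1 had no count in skin. The summed level of 10 keratinocyte markers was 143 and 173 CPM in skin against 12.3 to 13.8 CPM in lymph node. Krt14 gave 68.9 and 109.5 CPM of the skin sums and had no count in lymph node (edgeR adjusted p = 0.0421). It was the 1 marker called higher of the 5 tested. Krt1 had no count in any library, and Krt10 had none in skin against 2.32 to 4.31 CPM in lymph node. Fibroblast markers summed to 89.4 and 9.99 CPM in skin, most of it Sparc, and to 0.408 to 4.62 CPM in lymph node; Pdgfra had no count in any library. All 7 neutrophil markers in the table were at 0 in skin. Marker sums of 4 other cell types lay lower in skin. B cell markers summed to 22.1 and 72.3 CPM in skin against 80.0 to 214 CPM in lymph node, and markers of CD8 T, NK and innate lymphoid cells to 27.0 and 0 CPM in skin against 42.0 to 70.5 CPM in lymph node. Endothelial markers, nearly all Pecam1, summed to 69.0 and 2.90 CPM in skin against 353 to 501 CPM in lymph node. Melanocyte markers, nearly all Pmel, summed to 8.80 and 0 CPM in skin against 22.3 to 36.5 CPM in lymph node. The endothelial marker Cdh5 and the melanocyte markers Dct and Tyrp1 had no count in any library. Mast cell markers overlapped, at 12.8 and 0 CPM in skin and 9.65 to 24.9 CPM in lymph node. Macrophages and keratinocytes express many of the 10 genes too, so these values belong beside each rise described here; the part of other cells in the rises was not tested. In bulk RNA, more cells of a type and more RNA per cell cannot be told apart.

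Each of the 10 genes was at a higher level in both skin libraries than in any lymph node library, and 8 of them rose past the threshold. The differences between skin and lymph node were tested with edgeR's quasi-likelihood test, with p-values adjusted over all 11437 tested genes and an adjusted p under 0.05 as the threshold. By this rule 2.40% of all tested genes were higher in skin (275 genes) and 5.30% lower (606 genes); with libraries scaled to T cell genes instead, the counts were 896 higher and 730 lower. Skin lay above lymph node without overlap in 16.8% of all tested genes and below it in 33.5%, and the second of these patterns was shown by 0 of the 10. All 10 genes are abundant, with an average log2 CPM of at least 7.16; among the 1856 tested genes with an average of 7 or more, 7.22% were called higher and 25.4% had skin on top without overlap. The median log2 fold change (skin over lymph node) was 2.45 over the 10 genes and -0.21 over all tested genes. The 10 genes were chosen with earlier results of these data known, so this comparison with all tested genes is description only. In sum, the 10 genes held 12193 and 15758 CPM in the skin libraries, against 3856, 2286 and 2679 CPM in lymph node libraries 1 to 3.

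**Figure D1:**
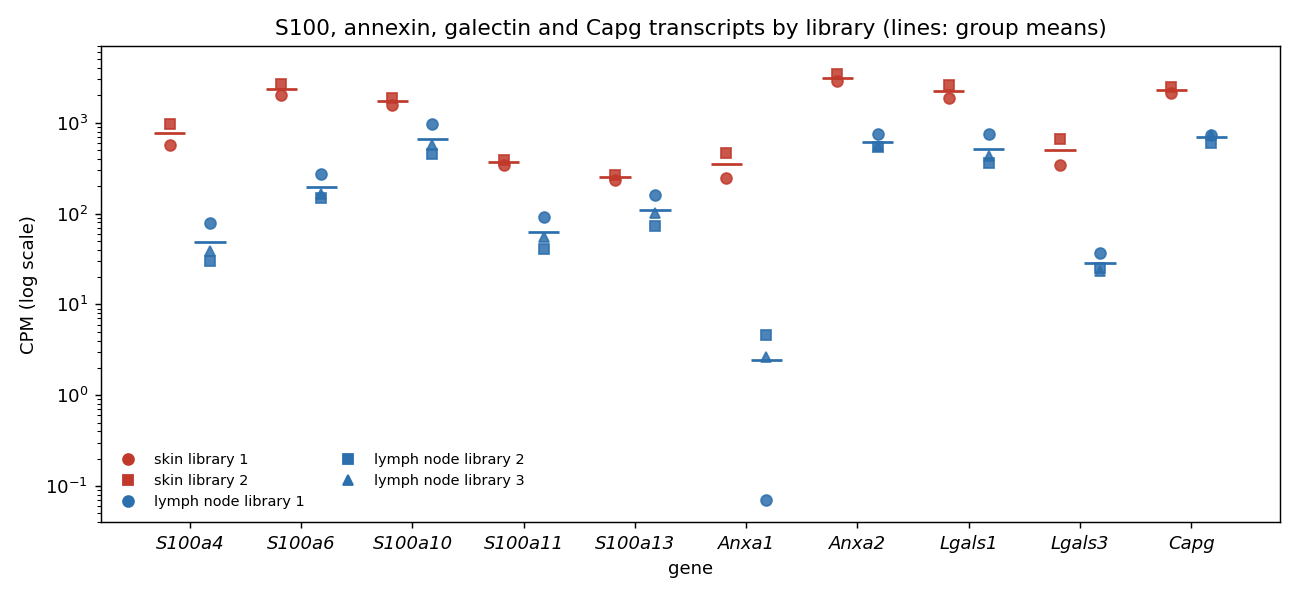
CPM of the 10 genes on a log scale, with 1 point per library (2 skin, 3 lymph node) and a line at each group mean. For every gene both skin points lie above all lymph node points; the gap is widest for Anxa1 and narrowest for S100a13.

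The S100 genes of the set differed in the size of their rise. S100a4, whose protein binds non-muscle myosin and is known for promoting cell motility, stood at 574 and 967 CPM in skin Tregs and at 78.3, 29.9 and 38.7 CPM in lymph node Tregs. Part of its exon sequence is shared with the annotated gene Gm42674. S100a4 was 15.7-fold higher in skin (log2 fold change 3.97, SE 0.52, edgeR adjusted p = 0.0381). S100a6 (calcyclin), known as a marker of cells entering the division cycle, reached 1993 and 2663 CPM in skin against 274, 147 and 163 CPM in lymph node. Its rise was 11.97-fold (log2 fold change 3.58, SE 0.34, edgeR adjusted p = 0.0240). S100a11, known as a partner of annexin A1, had 339 and 393 CPM in skin and 91.4, 40.8 and 54.8 CPM in lymph node, a 5.87-fold rise (log2 fold change 2.55, SE 0.41, edgeR adjusted p = 0.0440). Near-identical pseudogenes make its counts uncertain.

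The other S100 genes of the set did not pass. S100a10 (p11), which joins annexin A2 in a stable complex at the membrane, had 1581 and 1894 CPM in skin Tregs, against 964, 454 and 568 CPM in lymph node Tregs (log2 fold change 1.39, SE 0.35, edgeR adjusted p = 0.0635). S100a13, known for its part in the export of fibroblast growth factor 1 and interleukin 1 alpha, stood at 234 and 266 CPM in skin and 159, 72.9 and 100.5 CPM in lymph node (log2 fold change 1.17, SE 0.39, edgeR adjusted p = 0.116). Lymph node library 1 came closest to the skin values for both. Both passed in DESeq2 (adjusted p = 0.00411 for S100a10 and 0.0298 for S100a13), which called 10.8% of all tested genes higher in skin. In limma-voom, which called 4.95% higher, S100a10 passed (adjusted p = 0.0275) and S100a13 did not (0.0700).

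All 5 S100 genes of the set lie on chromosome 3 (mm10, GENCODE M21). S100a13 spans 90514435 to 90524581, S100a4 90603771 to 90606045 and S100a6 90612882 to 90624181, while S100a11 (93520488 to 93526287) and S100a10 (93555080 to 93564643) form a separate group further along. The table also listed 9 neighbours between S100a1 and S100a10. Of these, S100a3, S100a1 and S100a16 had both skin values above all lymph node values. S100a3 had 33.6 and 70.8 CPM in skin against 3.58, 0.862 and 1.43 CPM in lymph node (log2 fold change 4.73, SE 1.01, edgeR adjusted p = 0.0514). It shares 144 of its 5660 exon bases with Gm42674, the annotated gene that also overlaps S100a4. S100a1 had 18.3 and 20.97 CPM in skin against 4.78, 1.25 and 1.43 CPM in lymph node (log2 fold change 2.98, SE 1.02, edgeR adjusted p = 0.124). Neither passed the threshold. Leaving out 1 library, the log2 fold change lay between 4.09 (without skin library 2) and 5.50 (without lymph node library 1) for S100a3, and between 2.68 (without lymph node library 2) and 3.86 (without lymph node library 1) for S100a1. S100a8 and S100a9, the abundant S100 pair of neutrophils and inflammatory monocytes, had no count in any of the 5 libraries, which allows up to 0.145 CPM over the skin libraries and 0.0719 CPM over the lymph node libraries. S100a5 and S100a7a were likewise without a count. S100a14 and S100a16, genes of epithelia, were seen in 1 skin library each above 1 CPM: S100a14 at 14.3 CPM in skin library 1 and S100a16 at 40.5 CPM in skin library 2. S100a16 had 2 counts in skin library 1, and neither gene had a count in lymph node. Genes without a count thus lie between S100a4 and S100a6 and between S100a6 and S100a11. Among 12 other S100 genes, 5 had no count and 3 could be tested. In edgeR 0 of these passed, with 2 higher and 1 lower in skin at an unadjusted p under 0.05. DESeq2 called 2 higher, and limma-voom 1 higher and 1 lower. Of all tested genes, edgeR called 2.40% higher and 5.30% lower, and 3372 had an unadjusted p under 0.05 in either direction. Over all 11437 tested genes, DESeq2 called 1235 higher and 2027 lower, and limma-voom 566 higher and 1665 lower.

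**Figure D2:**
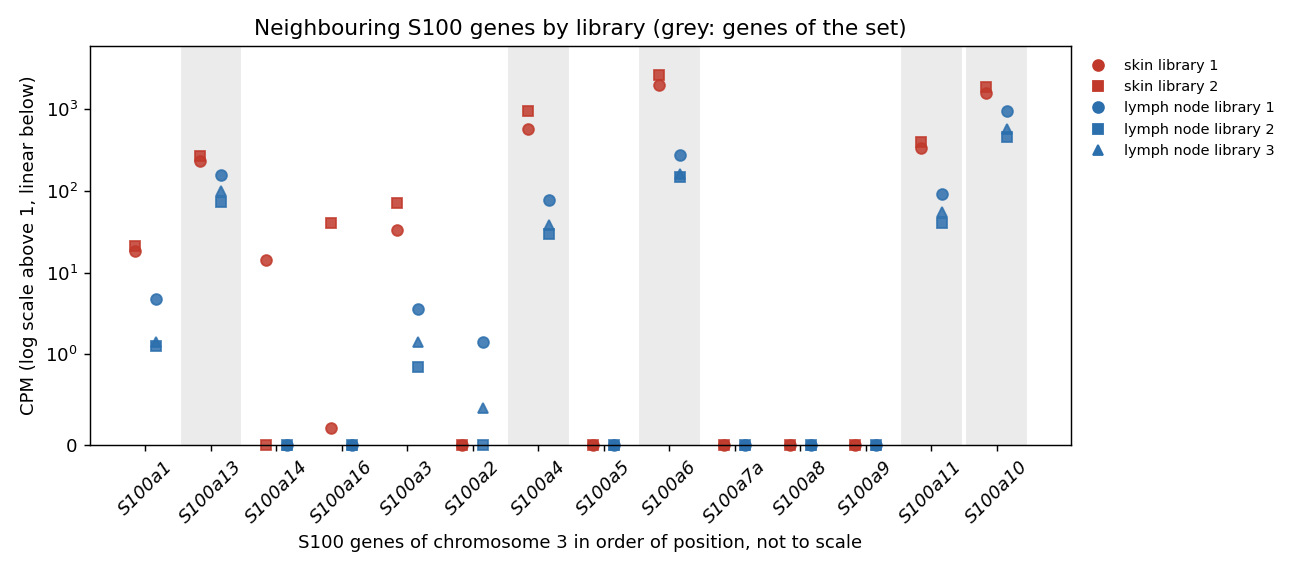
CPM of the S100 genes of chromosome 3, in order of position and not to scale, with 1 point per library; genes of the set are shaded. At S100a13, S100a4, S100a6, S100a11 and S100a10 both skin points lie above all lymph node points, and S100a5, S100a7a, S100a8 and S100a9 lie at 0, where points overlap.

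The promoters of the S100 genes that passed the test are given here because these genes rose together. The sequences are RefSeq's on GRCm38.p6, the 250 bases before the annotated start, on the plus strand of chromosome 3, written 5′ to 3′. Capitals mark matches, on either strand, to the TATA box TATAAA, the CCAAT box CCAAT, the GC box GGGCGG, the AP-1 site TGANTCA, the E box CACGTG, the RUNX site TGTGGT, the ETS site CCGGAAG, the cAMP response element TGACGTCA and the NF-kB site.
S100a4, chr3:90603520-90603769: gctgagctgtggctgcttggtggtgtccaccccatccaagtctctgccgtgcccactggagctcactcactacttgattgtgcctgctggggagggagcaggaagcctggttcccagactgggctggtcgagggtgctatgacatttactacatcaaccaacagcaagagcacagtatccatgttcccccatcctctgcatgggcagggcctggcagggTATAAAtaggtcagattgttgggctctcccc
S100a6, chr3:90612644-90612893: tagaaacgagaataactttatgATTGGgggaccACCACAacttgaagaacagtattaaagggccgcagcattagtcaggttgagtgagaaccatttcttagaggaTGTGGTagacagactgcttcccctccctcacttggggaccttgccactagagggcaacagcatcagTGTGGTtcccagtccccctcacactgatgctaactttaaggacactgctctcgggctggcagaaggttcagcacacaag
S100a11, chr3:93520246-93520495: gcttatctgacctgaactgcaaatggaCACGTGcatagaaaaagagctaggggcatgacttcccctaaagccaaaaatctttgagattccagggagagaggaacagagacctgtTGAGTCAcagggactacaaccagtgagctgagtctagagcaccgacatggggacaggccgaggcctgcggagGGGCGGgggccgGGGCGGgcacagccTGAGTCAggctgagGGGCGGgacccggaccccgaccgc

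The windows share none of these words. S100a4 held a TATA box at -31 to -26 and no other match. S100a6 held a CCAAT box at -228 to -224 and RUNX words at -217 to -212, -145 to -140 and -79 to -74. S100a11 held GC boxes at -64 to -59, -52 to -47 and -24 to -19, AP-1 words at -136 to -130 and -38 to -32, and an E box at -223 to -218. RefSeq promoters were matched for 8 of the 10 genes, all but S100a10 and Lgals1. Among those 8, the TATA box was found in 3 (S100a4, Anxa1 and Anxa2), the AP-1 word in 2 (S100a11 and Anxa2) and the GC box in 3 (S100a11, Anxa2 and Lgals3). Over all 32851 promoter windows of this length, 12.4% held the TATA box, 6.75% the AP-1 word, 32.7% the GC box, 14.045% the RUNX word, 33.9% the CCAAT box and 6.02% the E box. Some windows overlap exons annotated in GENCODE M21. The Anxa1 window lay wholly in Anxa1 exon sequence (250 bases), and the S100a13 window held 192 bases of S100a1 exon. Exon bases of the gene itself numbered 105 for Capg, 63 for Anxa2, 47 for Lgals3, 12 for S100a6 and 8 for S100a11. A match is a run of letters and says nothing of binding.

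Both annexins of the set rose, and Anxa1 had very few counts in lymph node Tregs. Anxa1, a membrane protein that glucocorticoids induce and that acts outside the cell through formyl peptide receptors, had 247 and 459.8 CPM in skin Tregs and 0.0702, 4.55 and 2.65 CPM in lymph node Tregs. These lymph node values rest on 1, 58 and 39 counts, so the fold is imprecise (log2 fold change 7.19, SE 1.40, edgeR adjusted p = 0.0484). Without lymph node library 2 the log2 fold change was 7.999. The call ended without a low-count filter (adjusted p = 0.0552). Anxa1 lies on chromosome 19, 20373428 to 20390944. Fpr1 and Fpr2, which encode its receptors, had no count in any library. Anxa2 (chromosome 9, 69453620 to 69491795), which links membranes to actin beneath the plasma membrane, was also higher. It stood at 2881 and 3397 CPM in skin and 757, 545 and 555 CPM in lymph node, a 5.07-fold rise (log2 fold change 2.34, SE 0.22, edgeR adjusted p = 0.0224).

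Some other annexins rose too. Of 10 further annexin genes 5 could be tested and all had a positive fold change, with a median log2 fold change of 1.505. Of these 5, 3 were called higher, against 2.40% of all tested genes. The other 5 had no count in any library. Anxa4 averaged 294 ± 72.9 CPM in skin (SD, n = 2) and 42.0 ± 8.55 CPM in lymph node (SD, n = 3; log2 fold change 2.81, edgeR adjusted p = 0.0327). Anxa7, which is known for membrane fusion, averaged 361 ± 39.8 CPM in skin and 83.0 ± 17.2 CPM in lymph node (log2 fold change 2.12, edgeR adjusted p = 0.0381). Anxa6, an annexin with a duplicated core, averaged 2475 ± 128 CPM in skin and 1253 ± 145 CPM in lymph node (log2 fold change 0.98, edgeR adjusted p = 0.0456). That last call was lost with upper quartile scaling (adjusted p = 0.0525) and without a filter (0.0516).

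Galectins split by member. Lgals1 (chromosome 15, 78926725 to 78930465), whose secreted dimer is known to act on activated T cells, stood at 1883 and 2613 CPM in skin Tregs and 759, 363 and 435 CPM in lymph node Tregs. This was 4.33-fold higher in skin (log2 fold change 2.11, SE 0.37, edgeR adjusted p = 0.0460). Lgals3 (chromosome 14, 47367751 to 47386160), a galectin that self-assembles on surface sugars and is a common marker of macrophages, had 342 and 662 CPM in skin and 37.2, 25.2 and 23.1 CPM in lymph node. Its rise was 17.6-fold (log2 fold change 4.14, SE 0.42, edgeR adjusted p = 0.0253), in libraries where macrophage markers summed to 1930 and 2254 CPM. Lgals9, a galectin with a pair of sugar-binding domains, went the other way. It had 149.8 and 161 CPM in skin against 1017, 829.98 and 1039 CPM in lymph node (log2 fold change -2.63, SE 0.22, edgeR adjusted p = 0.0221). Of 9 other galectin or galectin-like genes 6 were tested, with 0 higher, 2 lower and a median log2 fold change of -1.66. Over all tested genes, 2.40% were called higher and 5.30% lower. The second lower gene, Grifin, known as a lens protein related to galectins, had no count in either skin library, against 18.3, 14.9 and 18.9 CPM in lymph node. Set against a floor of 3 counts over the group, it was at least 121-fold lower in skin (edgeR adjusted p = 0.0456; 0.0548 without a filter). Lgals8 was at 159.6 and 47.6 CPM in skin and 98.1 to 123 CPM in lymph node and did not pass.

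Capg (chromosome 6, 72544391 to 72562983) had the smallest fold change of the 8 among the 10 genes that passed. It stood at 2119 and 2442 CPM in skin and 736, 603 and 739.6 CPM in lymph node, 3.29-fold higher (log2 fold change 1.72, SE 0.18, edgeR adjusted p = 0.0260). Among 4 tested relatives of the gelsolin family 0 passed in edgeR, and all 4 fold changes were positive, with a median of 1.06 on the log2 scale. At an unadjusted p under 0.05 edgeR had 1 of them higher, and DESeq2 and limma-voom called 1 each, Gsn (adjusted p = 0.000758 and 0.0418). Over all 11437 tested genes, edgeR called 2.40% higher, DESeq2 10.8% and limma-voom 4.95%. In edgeR 3372 of these had an unadjusted p under 0.05, in either direction. Gsn (gelsolin), which cuts and caps actin filaments, had 321 and 179.7 CPM in skin and 72.9 to 96.1 CPM in lymph node (edgeR adjusted p = 0.0557). Flii was at 113 and 291 CPM in skin and 86.4 to 144 CPM in lymph node (edgeR adjusted p = 0.350). The groups overlapped for Flii and not for Gsn.

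**Figure D3:**
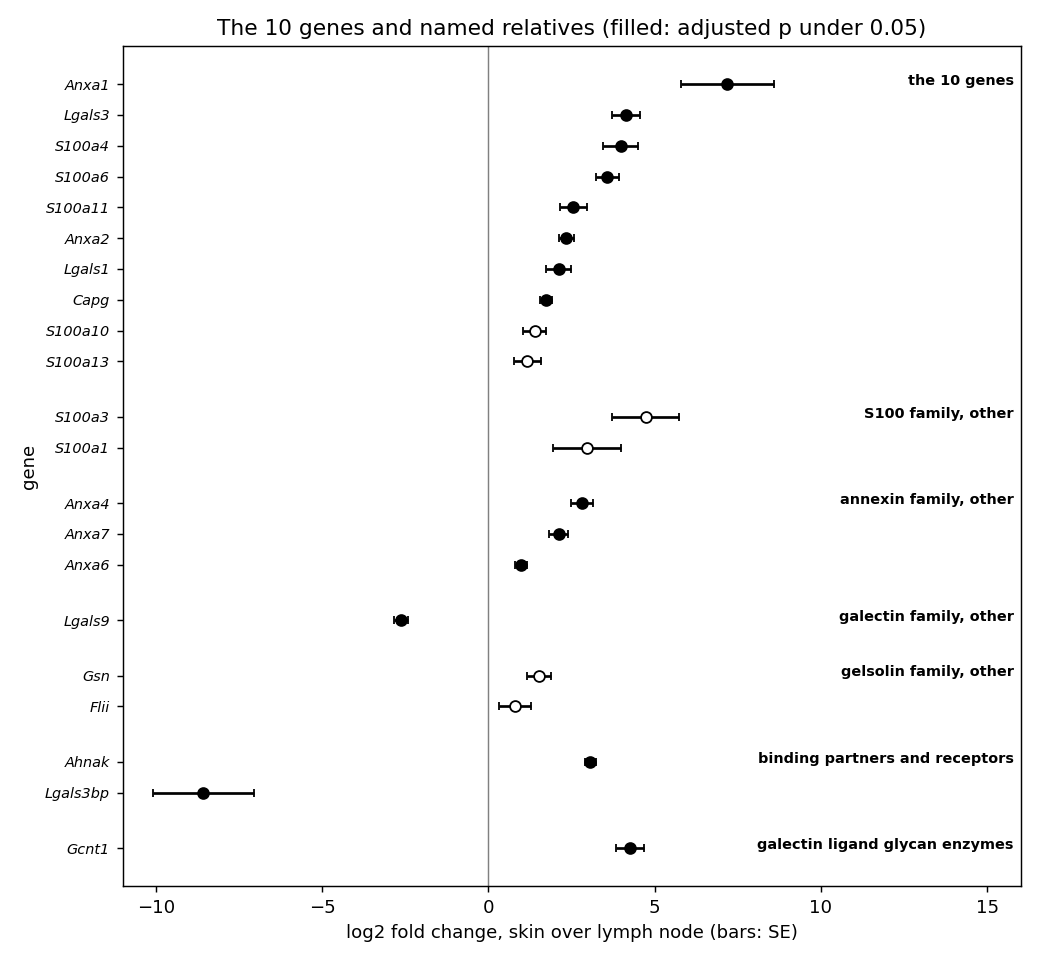
Log2 fold change, skin over lymph node, with its SE, for the 10 genes and for named genes of related lists with more than 3 counts in each group. Filled points passed an adjusted p of 0.05 in edgeR; Lgals9 and Lgals3bp lie left of 0, all others right of it.

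Among partners and receptors of these proteins, 1 of 12 tested genes was called higher and 1 lower, against 2.40% and 5.30% of all tested genes. Ahnak, a giant scaffold that binds the S100a10 and annexin A2 complex, had 3046 and 2826 CPM in skin Tregs and 335, 372 and 345 CPM in lymph node Tregs (log2 fold change 3.07, SE 0.16, edgeR adjusted p = 0.0124). Lgals3bp, a secreted glycoprotein that binds galectin 3, had 0 and 0.799 CPM in skin (0 and 8 counts) against 121, 108 and 232 CPM in lymph node (log2 fold change -8.57, SE 1.53, edgeR adjusted p = 0.0460). It did not pass without a filter (adjusted p = 0.0516), and its log2 fold change was -13.98 without skin library 2, where no skin count is left and the fitted value depends on the prior count, and -7.58 without skin library 1. These were edgeR's calls among the 12, whose median log2 fold change was -0.34. DESeq2 called 2 higher and 2 lower, and limma-voom 2 higher and 1 lower. Over all 11437 tested genes, DESeq2 called 1235 higher and 2027 lower, and limma-voom 566 higher and 1665 lower. Plaur, the urokinase receptor, had 43.3 and 65.7 CPM in skin and 2.11, 2.67 and 6.39 CPM in lymph node and did not pass (log2 fold change 3.87, SE 0.87, edgeR adjusted p = 0.0536). Ptprc (CD45), Spn (CD43) and Cd7, surface proteins known to bind galectin 1 in T cells, did not pass in edgeR.

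Of 12 tested enzymes that build galectin ligands, edgeR called 1 higher and 3 lower, with a median log2 fold change of 0.00. DESeq2 called 3 higher and 3 lower, and limma-voom 2 higher and 3 lower. Over all 11437 tested genes, edgeR called 2.40% higher and 5.30% lower. DESeq2 called 1235 of them higher and 2027 lower, and limma-voom 566 higher and 1665 lower. Gcnt1, which starts core 2 branches on O-linked sugars, had 380.3 and 209.7 CPM in skin against 14.7, 19.1 and 12.6 CPM in lymph node (log2 fold change 4.25, SE 0.42, edgeR adjusted p = 0.0253). C1galt1c1 (Cosmc), the chaperone of the enzyme that extends O-linked sugars, had 1 count in skin in all, against 60.8, 23.0 and 57.8 CPM in lymph node. Its level in lymph node over that in skin was 997 (95% interval from counting 179 to 39416; edgeR adjusted p = 0.0440). Mgat5, which adds the N-linked branches that galectin 3 favours, was without a count in skin, against 18.9, 13.6 and 24.5 CPM in lymph node, and so at least 133-fold lower in skin (edgeR adjusted p = 0.0460). Mgat4a, another branching enzyme, had 1 count in skin against 9.55, 24.0 and 23.3 CPM in lymph node, where its level was 389.5 times that in skin (95% interval from counting 69.7 to 15406; edgeR adjusted p = 0.0496). The calls of Mgat5 and Mgat4a were lost without a filter (adjusted p = 0.0548 and 0.0670). Skin libraries detected 9894 and 9192 genes, against 12173 to 12540 in lymph node libraries, and the part of lost transcripts in these low values was not tested. These intervals and floors cover counting error only.

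Per kilobase of exon, the order of levels among the 10 genes differed between the sources. The length used is the union of all annotated exons of a gene, so the order between genes depends on the annotation. In skin Tregs Lgals1 led at 2489 CPM per kb, followed by S100a6 at 1703, S100a10 at 1434 and S100a4 at 1319, whose library values overlapped one another. Capg at 902 and Anxa2 at 841 CPM per kb also overlapped, as did S100a13 at 349.8 and Lgals3 at 270.2 CPM per kb, while S100a11 lay between these pairs at 717 CPM per kb. Anxa1 was lowest at 121 CPM per kb. In lymph node Tregs Lgals1 at 575 and S100a10 at 546 CPM per kb led and overlapped, with Capg next at 274 CPM per kb. Anxa2, S100a13, S100a6, S100a11 and S100a4 followed between 166 and 83.9 CPM per kb, each overlapping its neighbour. Lgals3 at 15.3 and Anxa1 at 0.832 CPM per kb stood apart at the low end. By this measure S100a4 and S100a6 were among the highest of the set in skin and in the lower part of it in lymph node. Without division by length, S100a6 averaged 195 CPM in lymph node, above S100a13 at 111 CPM. S100a4 then averaged 770 CPM in skin, below S100a10 at 1738 CPM and Capg at 2281 CPM.

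Ratios within a library do not depend on how libraries are scaled. Their absolute size depends on the annotated exon lengths, which are the same for every library. Counts per kb of Anxa2 relative to its partner S100a10 were 0.592 and 0.583 in skin Tregs, against 0.255, 0.390 and 0.318 in lymph node Tregs. The groups did not overlap, and the skin libraries were close to each other. Lgals1 relative to Lgals9 was 29.7 and 38.4 in skin against 1.77, 1.04 and 0.990 in lymph node. Lgals3 relative to Lgals1 was 0.0882 and 0.123 in skin and 0.0238, 0.0337 and 0.0258 in lymph node. S100a6 relative to S100a13 was 4.45 and 5.23 in skin and 0.900, 1.06 and 0.846 in lymph node. Anxa1 relative to Anxa2 was 0.110 and 0.173 in skin against 0.000119, 0.0107 and 0.00612 in lymph node. Capg relative to Gsn was 8.24 and 16.96 in skin and 12.6, 7.84 and 10.08 in lymph node, so the groups overlapped for that pair alone among the 6 computed. These ratios were chosen after the values were seen and carry no test.

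**Figure D4:**
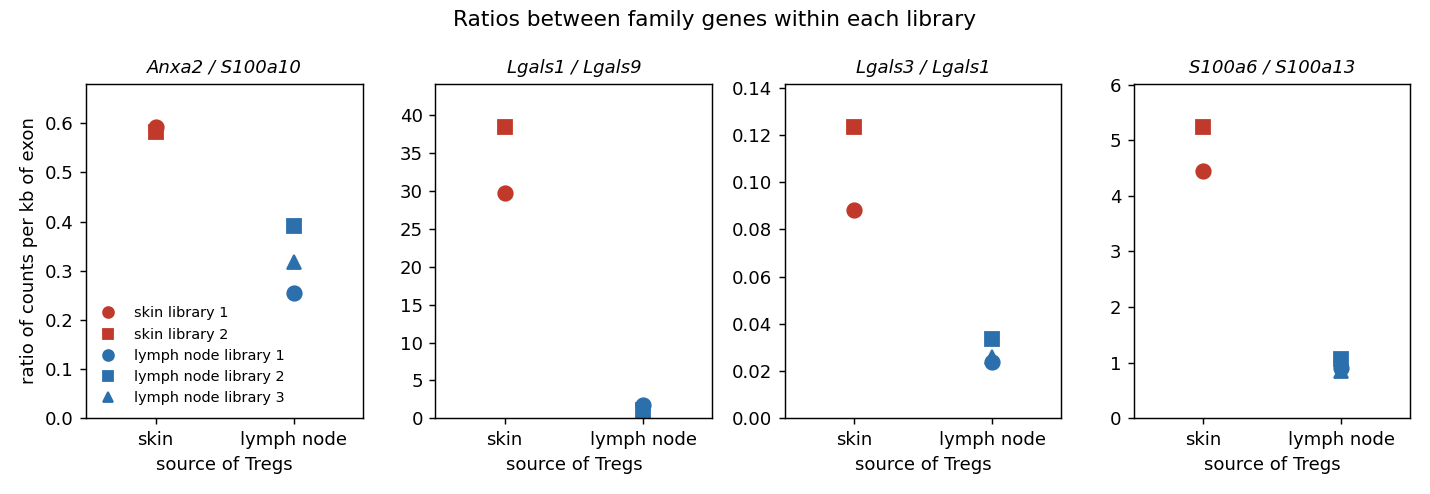
Ratio of counts per kb of exon between 2 genes within each library, for skin Tregs and lymph node Tregs, with linear axes from 0. Skin points lie above all lymph node points in each of the 4 panels, by most for Lgals1 over Lgals9 (29.7 and 38.4 against 0.990 to 1.77).

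Libraries of the same source also differed. The 2 skin libraries had a correlation of 0.61 with each other, no higher than the 0.57 to 0.62 between skin and lymph node libraries. Among the lymph node libraries the correlations were 0.90 to 0.91. Skin library 2 was above skin library 1 for all 10, by 1.14-fold for S100a13 to 1.94-fold for Lgals3, an order found for 42.2% of all tested genes and for 51.3% of the 1856 abundant ones. Macrophage markers were also higher in sum in skin library 2 (2254 against 1930 CPM), although single markers differed. Mrc1 was at 362 and 138 CPM in skin libraries 1 and 2, and Csf1r at 120.3 and 264 CPM. Among the lymph node libraries, 7 of the 10 genes had library 1 highest, then library 3, then library 2, an order found for 20.3% of all tested genes and 28.3% of the abundant ones. Anxa1 had library 1 lowest, Capg had library 3 highest and Lgals3 had library 3 lowest. The highest and the lowest lymph node library were 64.7-fold apart for Anxa1, where the lowest holds 1 count, and between 1.23-fold (Capg) and 2.62-fold (S100a4) apart for the other 9 genes. Library 1 exceeded library 2 at short genes in general: the median log2 ratio was 0.50 over 347 tested genes under 1 kb of exon and -0.16 over 4707 genes above 5 kb. Among the abundant genes these medians were 0.79 (29 genes) and -0.15 (856 genes). S100a4, S100a11, S100a13 and Lgals1 are under 1 kb, and the part of length in the lymph node order was not tested. Between the sources, tested genes under 1 kb had a median log2 fold change of -0.71, and the 29 abundant ones among them -0.31. Above 5 kb these medians were -0.03 and 0.10. The part of length in the differences between the sources was not tested either. With an offset for length, chosen after the data were seen, all 10 genes passed in edgeR (log2 fold changes from 1.65 to 7.24). That fit called 2.89% of tested genes higher.

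The genes whose 5-library pattern lay closest to the mean pattern of the set, by root mean square difference of centred log2 CPM, were Plin2, Rab11fip1, Vim, Atp2b4 and Mki67, out of 5547 candidates. Their distances ran from 0.14 to 0.20 on the log2 scale. Plin2, a coat protein of lipid droplets, had 237 and 324 CPM in skin and 32.1, 31.9 and 36.3 CPM in lymph node. Vim (vimentin), an intermediate filament protein, had 5997 and 7344 CPM in skin and 868, 913 and 919 CPM in lymph node.

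The rises kept their sign under every alternative run, but the calls depended on which libraries were in the fit. Without any 1 of the lymph node libraries edgeR called none of the 10 genes and 0 genes in all, with 2474, 2485 and 2361 genes at an unadjusted p under 0.05. The adjusted p of the 10 genes was then 0.113 without library 1, 0.115 to 0.228 without library 2 and 0.115 to 0.325 without library 3, while 9 or 10 of them had an unadjusted p under 0.05. Without skin library 1 all 10 were called and without skin library 2 9 were, in fits that called 16.9% and 14.4% of tested genes higher and in which the lone skin library is assumed to vary like the lymph node libraries. With libraries scaled to 6 T cell genes, which include the CD3 chains, all 10 passed, in a fit that called 7.83% higher. Of the genes used for that scaling, Lck fell in the reported fit, at 1411 and 1765 CPM in skin against 2991, 2712 and 3031 CPM in lymph node (edgeR adjusted p = 0.0492).

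**Figure D5:**
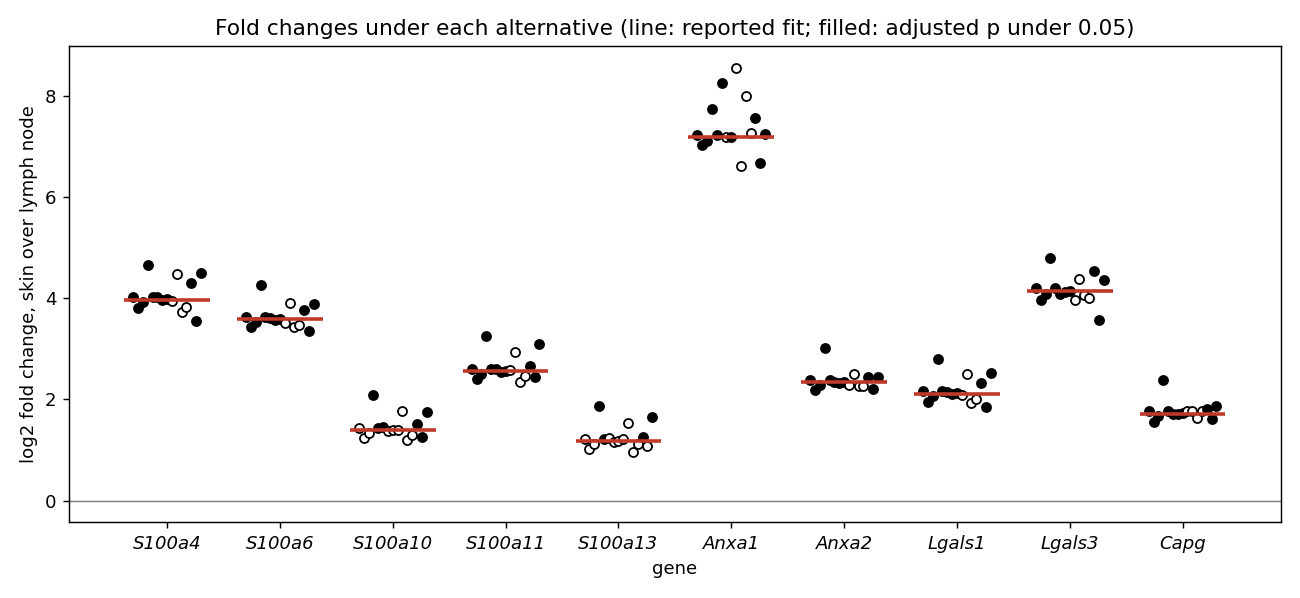
Log2 fold change, skin over lymph node, of the 10 genes under each of 15 alternatives (points) and in the reported fit (line); filled points passed an adjusted p of 0.05. All points lie above 0, and the open points of genes that passed in the reported fit come from leaving out a lymph node library, from the replicate block and, for Anxa1, from dropping the filter.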

How the data were processed

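Sorted Tregs were frozen, and SMARTer chemistry for very small RNA inputs turned their purified RNA into cDNA, per the labels' protocols. The submitters' processing notes name HTSeq 0.6.1, TopHat2 2.0.12, Bowtie2 2.1.0.0, CASAVA 1.8.2, SAMtools 0.1.19.0 and build mm10; no source used here gives options, annotation or strand setting. The deposited file holds raw counts per gene symbol; its header was read as shifted by 1 cell. Its 5 summary rows, 78.3 to 80.7% of all counts, mostly reads that did not align uniquely (64.5 to 72.0%), were left out. Reads shared with copies were thus not counted: S100a11 matches the processed pseudogenes Gm12854 and Gm7665 at 99.0 and 98.7% over 297 bases (blastn 2.17.0), so its counts are uncertain. S100a4 shares 302 exon bases with the annotated gene Gm42674, and their reads cannot be told apart.

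Counts were filtered by filterByExpr (minimum count 10), scaled by TMM and tested with edgeR 4.0.16 in R 4.3.3 (quasi-likelihood test, Benjamini-Hochberg); the SE is the log2 fold change divided by the square root of F. Log2 CPM used a prior count of 2. DESeq2 1.42.0 and limma-voom (limma 3.58.1) were alternatives. Scripts were tested on simulated data. Exon lengths and positions come from GENCODE M21. With 2 and 3 libraries no permutation of labels can reach 0.05, so none was run. The 10 genes and all lists were chosen with earlier results of these data known. Besides the 10, the rule for named genes took up to 4 called genes of each list, or the 2 most abundant where none passed, plus S100a8 and S100a9, and the 5 genes nearest in pattern among those averaging at least 5 on the log2 CPM scale; other genes were named after their values were seen.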

Additional observations from a re-analysis of the deposited data

How the results depend on the processing

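The 10 genes kept positive fold changes in all 15 alternatives, of which the length offset was chosen after seeing the data. The count of the 10 genes called higher was 8 in the reported fit and lay between 7 and 10 in 11 alternatives, but was 0 with the replicate number as a block and ranged from 0 to 10 over the fits that left out 1 library. Over all genes, higher and lower calls numbered 1235 and 2027 with DESeq2, 566 and 1665 with limma-voom, 136 and 179 without a low-count filter, and 11 and 10 with the block; scaling to T cell genes gave 896 higher. Leaving out 1 library gave 0 to 2110 higher and 0 to 3955 lower calls. The median log2 fold change of all genes was -0.21 in the reported fit, -0.37 with upper quartile scaling and 0.46 with T cell scaling, so fold changes moved with it by up to 0.70. Without 1 library, the log2 fold change of Flii ranged from -0.0525 (without skin library 2, reversed) to 1.32 (without skin library 1, adjusted p = 0.0130 in edgeR). Among the 10 genes, Anxa1 alone moved by over 1.5 times on leaving out 1 library, to 7.999 without lymph node library 2; it was 8.56 with the block and 8.26 with limma-voom. The causes were not tested. The labels do not say that a replicate number marks a shared animal or batch, so the numbers are not read as pairs. Deviations of same-numbered libraries had correlations of -0.03 and -0.02 across genes. With only 2 skin libraries, unlike each other, these values cannot settle whether the numbers mark pairs. The block leaves 1 residual degree of freedom. In edgeR 9 of the 10 genes had an unadjusted p under 0.05 there, as did 772 of all 11437 tested genes.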
